A study of Homo sapiens with 24 samples.

Results

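The PIM kinases PIM1, PIM2 and PIM3 are the 3 members of a small family of serine/threonine kinases, and they are 3 of the 26450 genes in the deposited expression table. They were chosen by gene symbol, on transcript levels seen in earlier results of these same libraries, so their own levels are given as a description and without a test. The series compared human cells grown flat with human cells grown as spheroids, by sequencing RNA from 24 libraries. PANC-1, a carcinoma line of the pancreatic duct, and HEK293T, an embryonic kidney line that carries the SV40 large T antigen, were each grown in 4 formats with 3 libraries per format. The formats were 2D culture, aggregates in AggreWell microwells, and 2 speeds, 1 rpm and 30 rpm, of dual-axis rotating capillary containers (DRCC), which hold spheroids in suspension as they turn. No label gives a drug, a transgene added for the study or a culture time, and each line is a single established line, so n counts libraries of 1 line. Nothing in the labels says that the 3 libraries of a group came from separate cultures, so p-values cover only how far these libraries differ from each other, and that spread may be technical.

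PIM kinases are active once they are made, because they need no phosphorylation by an upstream kinase, so their activity is known to follow their amount. Their genes are classic targets of cytokine receptors that signal through JAK kinases and STAT transcription factors, and NF-κB is a further known inducer. The messenger RNAs are short-lived and carry AU-rich elements, and the proteins phosphorylate regulators of survival, the cell cycle and cap-dependent translation in parallel with AKT. PIM3 is known for its presence in pancreatic carcinoma, while PIM1 and PIM2 were found as integration sites of leukaemia viruses in mouse lymphomas.

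The promoter sequences of the family are shown because the 3 genes differed in their response to culture format, and because the known inducers act through short DNA motifs. Each window runs from 250 bases before to 50 bases after the annotated start, from RefSeq on build GRCh38.p14. PIM1 is at chr6:37169902-37170201 on the plus strand, PIM2 at chrX:48918975-48919274 on the minus strand and PIM3 at chr22:49960522-49960821 on the plus strand. Capitals mark the GC box GGGCGG and the octamer ATGCAAAT, on either strand.
PIM1: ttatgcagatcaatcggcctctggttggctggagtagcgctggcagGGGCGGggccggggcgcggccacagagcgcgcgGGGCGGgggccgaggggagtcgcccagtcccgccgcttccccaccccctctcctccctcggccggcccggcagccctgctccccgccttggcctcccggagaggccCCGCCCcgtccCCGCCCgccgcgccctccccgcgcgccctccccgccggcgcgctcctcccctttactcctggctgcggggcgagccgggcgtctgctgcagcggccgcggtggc
PIM2: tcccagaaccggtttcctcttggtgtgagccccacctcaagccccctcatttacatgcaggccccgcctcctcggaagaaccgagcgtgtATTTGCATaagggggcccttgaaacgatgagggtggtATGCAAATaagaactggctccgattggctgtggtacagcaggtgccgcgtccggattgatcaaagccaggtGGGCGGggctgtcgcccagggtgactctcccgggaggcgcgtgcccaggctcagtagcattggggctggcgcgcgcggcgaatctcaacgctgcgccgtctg
PIM3: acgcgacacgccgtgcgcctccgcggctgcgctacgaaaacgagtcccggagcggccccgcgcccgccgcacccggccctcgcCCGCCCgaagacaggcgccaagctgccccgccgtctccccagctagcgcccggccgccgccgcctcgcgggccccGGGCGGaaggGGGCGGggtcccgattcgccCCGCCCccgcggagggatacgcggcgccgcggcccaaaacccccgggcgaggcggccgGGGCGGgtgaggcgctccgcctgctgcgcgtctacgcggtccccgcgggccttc
The GC box, a binding motif of SP-family factors, occurred 4 times in the PIM1 window, once in that of PIM2 and 5 times in that of PIM3. Of 35116 promoter windows of the same length, 44.95% held at least 1 GC box, 9.06% held at least 4 and 5.14% at least 5. The windows of PIM1 and PIM3 were 79.7% and 81.3% G and C, above 97.1% and 98.4% of all windows, whereas that of PIM2 was 62.3%, against a median of 58.7%. PIM2 alone of the 3 held the octamer, at 2 places on opposite strands, beginning at positions -160 and -123 from the start. The octamer was added to the search after the sequences had been read, and 1.77% of windows held at least 1 match and 0.04% at least 2. None of the 3 windows held the STAT motif TTCNNNGAA, the AP-1 motif TGANTCA, the CREB motif TGACGTCA or the E-box CACGTG, read on both strands. These were present in 7.66%, 7.71%, 1.85% and 7.26% of all windows. No match of one motif overlapped a match of another in these 3 windows, and a window without a match says nothing of binding elsewhere.

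The 3′ ends were searched for ATTTA, the core of AU-rich elements, because such elements shorten the life of PIM messages. The sites below are 30 bases long, read from the GENCODE release 29 transcript of each gene, with each ATTTA core in capitals.
PIM1: atgttatgtATTTATTTATTTATTTAtttg
PIM2: tcctgcctggattATTTAaaaagccatgtg
PIM3: cgccaactctgttATTTAtggtgtgacccc
PIM1 held 5 cores in 1335 bases of 3′ untranslated sequence, and 4 of them lay within the longer form TATTTAT. PIM3 held 4 in 953 bases with 2 in the longer form, and PIM2 held 2 in 949 bases with 0 in the longer form. Per kilobase this is 3.75 for PIM1, 2.11 for PIM2 and 4.2 for PIM3, against a median of 1.59 over 18186 genes. Of those genes, 17.8%, 41.1% and 13.7% were at least as dense as PIM1, PIM2 and PIM3. At least 1 core was present in 70.4% of them, and the longer form in 32.4%. In PIM1, 4 of the 5 cores overlap in a single tract, which the printed site shows whole.

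The libraries held 32555387 to 39556154 fragments, and the DRCC libraries were the shallower ones: in HEK293T, 32555387 to 33113164 at 30 rpm against 38872081 to 39437898 in 2D. Levels are FPKM, which divide fragments by transcript length and library depth, so they can be set side by side between genes. Summed over 7 marker genes of PANC-1 epithelium (such as CD44 and CAV1), PANC-1 libraries held 499 to 519 FPKM in 2D, 353 to 361 in AggreWell, 280.1 to 281.9 at 1 rpm and 259 to 266 at 30 rpm, so the sum was lowest in the formats where PIM1 and PIM3 were highest. HEK293T libraries held 4.07 to 6.04. Summed over 7 HEK293T markers, of which 6 were in the table, HEK293T libraries held 125 to 129 FPKM in 2D, 109.5 to 113.2 in AggreWell, 96.7 to 100.5 at 1 rpm and 86.9 to 88.8 at 30 rpm, and PANC-1 libraries 10.8 to 16.8. DLK1 was listed at 0 in HEK293T although it was among those markers. The T-cell gene CD3E and the leukocyte gene PTPRC were at or near 0 in both lines. The whole list of 6 immune genes, among them CD68, summed to 48.1 to 62.5 FPKM in PANC-1 and 1.14 to 4.31 in HEK293T. For 4 fibroblast genes the sums were 12.1 to 19.2 and 9.48 to 11.8, and for 4 endothelial genes 0.211 to 4.66 and 0.0653 to 0.357. The part of these marker sums in the PIM levels was not tested.

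PIM1, the founding member, was higher in both DRCC formats than in 2D in both lines. In PANC-1 it stood at 7.61, 7.93 and 8.10 FPKM in 2D, and at 6.23, 5.97 and 6.04 in AggreWell. At 1 rpm the libraries held 32.4, 32.3 and 30.7 FPKM, and at 30 rpm 42.4, 42.2 and 43.9. The 4 formats did not overlap with each other, with AggreWell lowest and 30 rpm highest. On the log2(FPKM + 1) scale, which understates the change of low genes, the difference from 2D was 1.88 ± 0.03 (SE, n = 3 against 3) at 1 rpm and 2.30 ± 0.03 at 30 rpm. In mean FPKM this is 4.03-fold and 5.43-fold. The AggreWell libraries were lower than 2D by a log2 difference of -0.33 ± 0.03. In a bulk sample, more cells that make a transcript and more transcript per cell cannot be told apart, and this holds for every level given here.

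In HEK293T, PIM1 began at the same level and rested on a plateau across the DRCC speeds. It stood at 7.75, 7.10 and 7.66 FPKM in 2D and at 7.93, 7.65 and 8.38 in AggreWell, and these ranges overlapped. At 1 rpm it stood at 21.2, 22.1 and 20.4 FPKM and at 30 rpm at 21.5, 21.4 and 21.5, with ranges that also overlapped each other. Every DRCC library lay above every 2D and AggreWell library. The log2 difference from 2D was 1.39 ± 0.05 at 1 rpm and 1.40 ± 0.04 at 30 rpm, or 2.83-fold and 2.86-fold in mean FPKM. For AggreWell it was 0.08 ± 0.05, and it turned to -0.13 when libraries were scaled by the median of ratios in place of total fragments.

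PIM2, which is known for its role in lymphoid cells and myeloma, moved in opposite directions in the lines. In PANC-1 it stood at 20.6, 20.5 and 21.1 FPKM in 2D and at 23.3, 21.9 and 23.1 in AggreWell. It stood at 31.7, 29.1 and 31.6 FPKM at 1 rpm and at 32.8, 35.2 and 35.2 at 30 rpm. No 2 formats overlapped, and the order ran from 2D through AggreWell and 1 rpm to 30 rpm. The log2 difference from 2D was 0.55 ± 0.04 at 1 rpm and 0.70 ± 0.04 at 30 rpm (1.49-fold and 1.66-fold). These differences were above those of 72.9% and 79.0% of all tested genes in the line. In AggreWell the PIM2 difference was 0.13 ± 0.03, and -0.056 under median-ratio scaling.

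In HEK293T, PIM2 was lower in the DRCC formats. It stood at 27.3, 25.7 and 26.4 FPKM in 2D and at 22.4, 24.7 and 23.6 in AggreWell. At 1 rpm it stood at 16.8, 15.2 and 15.6 FPKM and at 30 rpm at 14.98, 16.1 and 15.6. The speeds overlapped each other and lay below every AggreWell library, which in turn lay below every 2D library. The log2 difference from 2D was -0.16 ± 0.05 in AggreWell, -0.70 ± 0.05 at 1 rpm and -0.73 ± 0.04 at 30 rpm. The DRCC means were 0.600 and 0.589 times the 2D mean. These DRCC differences were above those of 7.55% and 9.01% of all tested genes in the line.

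PIM3 was the most abundant member in all 8 groups and had the largest difference from 2D of the family in PANC-1. There it stood at 28.3, 28.1 and 27.6 FPKM in 2D and at 27.6, 26.5 and 28.0 in AggreWell. It stood at 141, 145 and 148 FPKM at 1 rpm and at 184, 182 and 184 at 30 rpm. AggreWell and 2D overlapped, 1 rpm lay far above both, and 30 rpm lay above 1 rpm. The log2 difference from 2D was 2.33 ± 0.02 at 1 rpm and 2.67 ± 0.01 at 30 rpm, or 5.18-fold and 6.55-fold. For AggreWell it was -0.031 ± 0.025.

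In HEK293T, PIM3 varied less between formats than in PANC-1. It stood at 64.3, 64.5 and 67.1 FPKM in 2D and at 66.2, 64.4 and 68.6 in AggreWell, which overlapped. It stood at 57.0, 51.6 and 52.6 FPKM at 1 rpm and at 60.8, 59.2 and 62.0 at 30 rpm. The DRCC libraries lay below those of 2D, with 1 rpm lowest. The log2 difference from 2D was -0.28 ± 0.05 at 1 rpm and -0.10 ± 0.03 at 30 rpm. For AggreWell it was 0.023 ± 0.032, and -0.20 under median-ratio scaling. That scaling gave -0.57 at 1 rpm and -0.31 at 30 rpm.

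**Figure D1:**
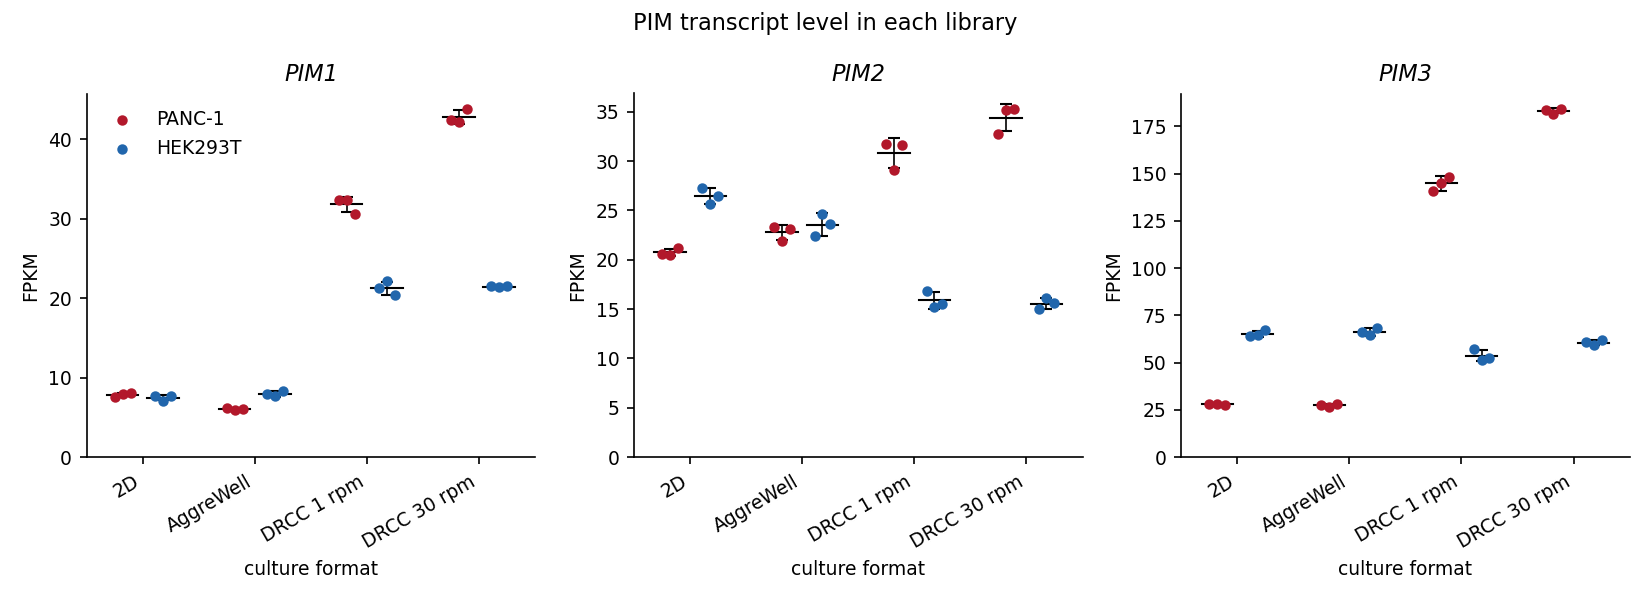
FPKM (vertical axis, from 0) of PIM1, PIM2 and PIM3 in each library by culture format, with red points for PANC-1, blue points for HEK293T, and black lines for the mean ± SD of 3 libraries. PIM1 is higher in the DRCC formats in both lines, PIM2 goes up in PANC-1 and down in HEK293T, and PIM3 reaches 184 FPKM in PANC-1 at 30 rpm while it stays between 51.6 and 68.6 in HEK293T.

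The order of the groups differed from gene to gene. For PIM1 the lowest group was PANC-1 AggreWell, followed by HEK293T 2D, PANC-1 2D and HEK293T AggreWell, and each of these last 3 overlapped with its neighbour. The HEK293T DRCC groups overlapped with each other, and PANC-1 at 1 rpm and then at 30 rpm stood above them. For PIM2 the order ran from the HEK293T DRCC groups, which overlapped, through PANC-1 2D to PANC-1 AggreWell and HEK293T AggreWell, which overlapped. HEK293T 2D, PANC-1 1 rpm and PANC-1 30 rpm followed without overlap. For PIM3 the PANC-1 AggreWell and 2D groups overlapped at the bottom, and HEK293T 2D and AggreWell overlapped in the upper middle. HEK293T at 1 rpm and then at 30 rpm lay between those pairs, and PANC-1 at 1 rpm and at 30 rpm lay at the top.

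Between 2D and 30 rpm, the lines exchanged their order for 2 of the 3 genes. In 2D, mean PIM3 was 2.33 times as high in HEK293T as in PANC-1, and at 30 rpm it was 3.02 times as high in PANC-1 as in HEK293T. PIM2 was 1.28 times as high in HEK293T in 2D and 2.21 times as high in PANC-1 at 30 rpm. PIM1 overlapped between the lines in 2D and was 2.00 times as high in PANC-1 at 30 rpm. In AggreWell, however, PIM1 was 1.31 times as high in HEK293T, without overlap. These contrasts between lines were not tested.

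Between the DRCC speeds, the faster one had more PIM transcript in PANC-1. The log2 difference of 30 rpm from 1 rpm there was 0.42 ± 0.03 for PIM1, 0.34 ± 0.02 for PIM3 and 0.15 ± 0.05 for PIM2, all without overlap. In HEK293T it was 0.014 ± 0.031 for PIM1 and -0.026 ± 0.050 for PIM2, both with overlap. PIM3 did not overlap there and was higher at 30 rpm by 0.17 ± 0.05. PIM1 had the fewest fragments of the family, at 631 to 644 per library in PANC-1 AggreWell.

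**Figure D2:**
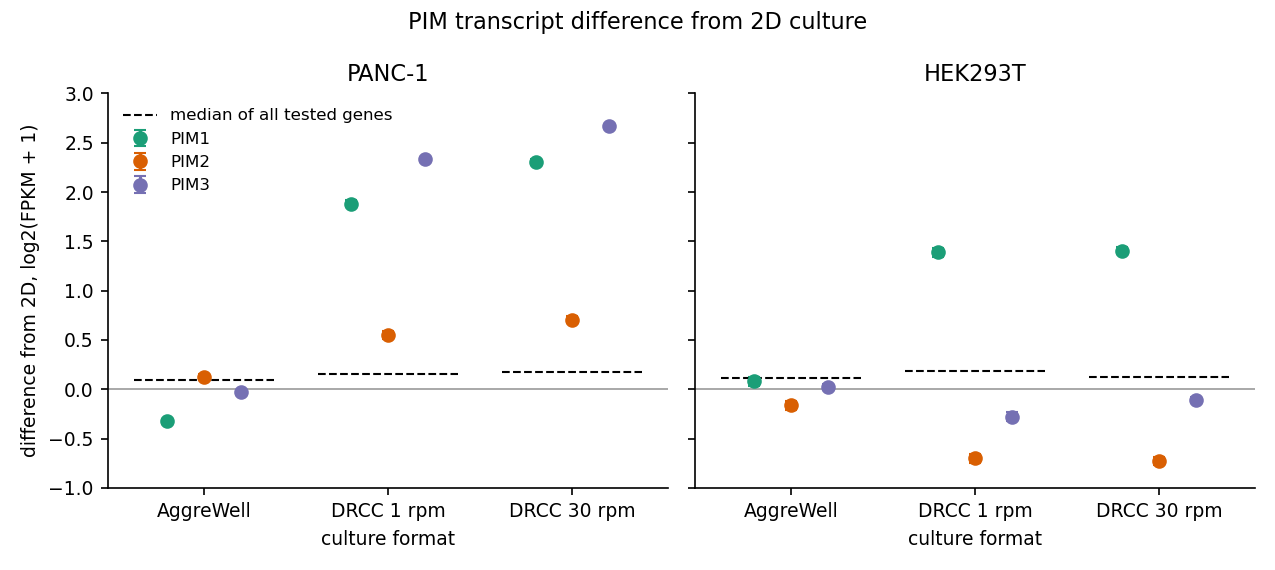
Difference of mean log2(FPKM + 1) from 2D (vertical axis) for each PIM gene in AggreWell, DRCC 1 rpm and DRCC 30 rpm, with PANC-1 in the left panel and HEK293T in the right one. Bars are the SE from 3 and 3 libraries, often smaller than the point, and dashed lines are the median of all tested genes; in PANC-1 the DRCC points of PIM1 and PIM3 lie between 1.88 and 2.67, and in HEK293T only PIM1 lies above 1.

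The median of all tested genes also moved in this scaling, and it gives the scale for the small differences. It was 0.10, 0.15 and 0.17 in PANC-1 for AggreWell, 1 rpm and 30 rpm against 2D, and 0.12, 0.18 and 0.13 in HEK293T, on the same log2 scale. The AggreWell differences of PIM2 in PANC-1 and of PIM1 and PIM3 in HEK293T, at 0.13, 0.08 and 0.023, were of that size or smaller. Median-ratio scaling turned all 3 of them negative and left the direction of the other 15 differences from 2D as given.

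Summed over the family, PANC-1 held 56.6 ± 0.2 FPKM (SD, n = 3) in 2D, 56.2 ± 1.6 in AggreWell, 207 ± 3 at 1 rpm and 260 ± 3 at 30 rpm. In HEK293T the sums were 99.2 ± 1.9, 97.9 ± 2.3, 90.9 ± 3.6 and 97.7 ± 1.2 FPKM in the same order. In FPKM, HEK293T thus kept its summed level within 88.6 to 101.2 while its makeup differed. That level depends on the scaling by total fragments. Under median-ratio scaling the HEK293T differences at 1 rpm from 2D were 1.12, -0.99 and -0.57 for PIM1, PIM2 and PIM3, against 1.39, -0.70 and -0.28 here. The HEK293T sum was not computed in that scaling. The PIM1 share there was 7.56% ± 0.26 in 2D and 22.0% ± 0.2 at 30 rpm, and the PIM2 share was 26.7% ± 0.7 and 15.9% ± 0.7. In PANC-1 the PIM3 share was 49.4% ± 0.8 in 2D and 70.4% ± 0.5 at 30 rpm. The ratio of PIM2 to PIM1 was lower in DRCC than in 2D in both lines. In PANC-1 it was 2.63 ± 0.07 in 2D, 0.970 ± 0.066 at 1 rpm, which spans 1, and 0.804 ± 0.030 at 30 rpm. In HEK293T it was 3.53 ± 0.08, 0.748 ± 0.053 and 0.726 ± 0.028 in the same formats.

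**Figure D3:**
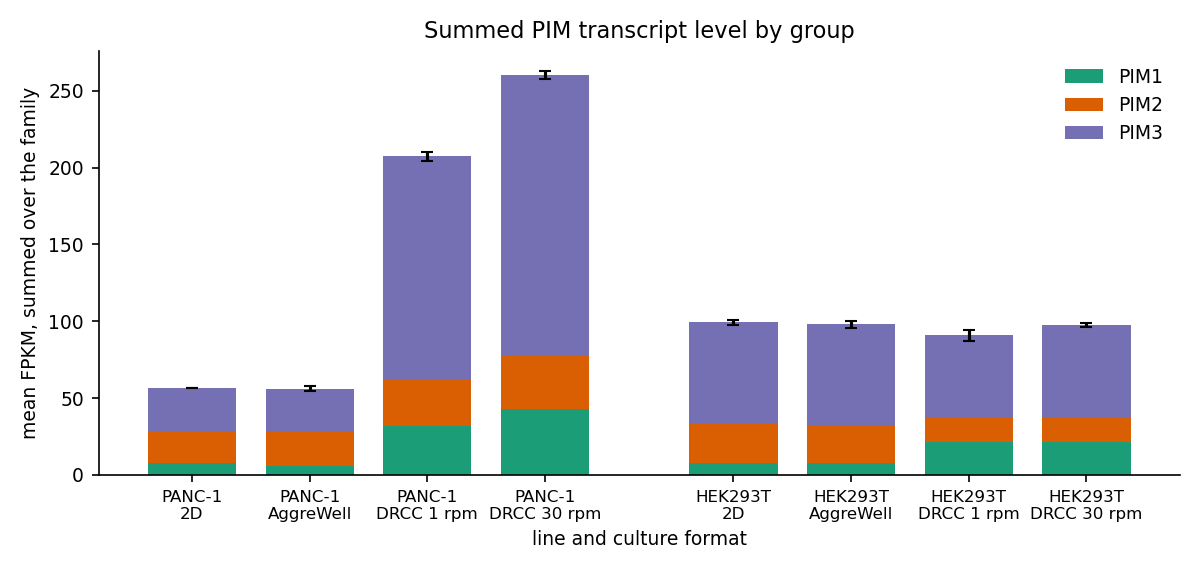
Mean FPKM of PIM1, PIM2 and PIM3 stacked by group (vertical axis, from 0), with bars at the top for the SD of the sum over 3 libraries. The stack grows from 56.6 to 260 FPKM in PANC-1, mostly through PIM3, and stays between 90.9 and 99.2 in HEK293T, where the PIM1 part is larger and the PIM2 part smaller in DRCC.

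Across the 8 group means, with the mean of each line taken out, PIM1 and PIM3 had a Pearson r of 0.812, PIM2 and PIM3 of 0.709 and PIM1 and PIM2 of 0.178. Within the 4 PANC-1 groups all 3 pairs had r of at least 0.965. Within the 4 HEK293T groups PIM1 and PIM2 had r of -0.991, PIM1 and PIM3 of -0.847, and PIM2 and PIM3 of 0.814. These are descriptions over few points, and the points of a line share the mean that was taken out.

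The genes whose pattern over the 8 groups was most like that of a member were found among genes with a range of at least 1 on that centred log2 scale. For PIM1 they were IFT20, an intraflagellar transport gene (r = 0.9988), SPRY2, a feedback inhibitor of receptor tyrosine kinase signalling (0.994), BTG1 (0.9929), GAD1 (0.9906) and PPP1R15A (0.9899). PPP1R15A, which encodes the GADD34 subunit that restores translation after stress, stood at 11.99 FPKM in PANC-1 2D and 108 at 30 rpm, and at 14.9 and 90.9 in HEK293T. For PIM3 they were QPCTL (0.9943), HOXB2 (0.9923), MIDN (0.9921), FBXO6 (0.9895) and KMT5C (0.9862). MIDN, which encodes the proteasome cofactor midnolin, stood at 17.8 and 61.5 FPKM in PANC-1 and at 21.7 and 18.2 in HEK293T, in 2D and at 30 rpm. For PIM2 they were TPRN (0.9803), NAPRT (0.9608), MXD4 (0.9582), ZNF668 (0.9558) and IDH1 (0.9533). IDH1, the cytosolic isocitrate dehydrogenase, stood at 15.8 and 50.8 FPKM in PANC-1 and at 51.4 and 25.0 in HEK293T. At r of at least 0.95 there were 157 genes for PIM1 and 88 for PIM3 of 3956 compared, and 5 for PIM2 of 3957. PIM2 itself had a range of 0.742, under the cut of 1, against 2.63 for PIM1 and 2.70 for PIM3. Genes that varied as little as PIM2 were therefore left out, and its count cannot be set beside the others.

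The nearest measured genes on the chromosomes are given as a description. FGD2 and TMEM217, beside PIM1, had group means of at most 0.219 FPKM. SLC35A2, a Golgi nucleotide sugar transporter beside PIM2, stood at 17.98 FPKM in PANC-1 2D and 22.1 at 30 rpm, and OTUD5, a deubiquitinase on the other side, at 7.80 and 11.5. In HEK293T SLC35A2 stood at 14.2 and 12.9 FPKM and OTUD5 at 22.7 and 20.7. CRELD2, an endoplasmic reticulum stress gene beside PIM3, stood in PANC-1 at 10.8 FPKM in 2D, 8.08 at 1 rpm and 14.4 at 30 rpm. In HEK293T it stood at 20.5, 10.8 and 9.90 FPKM in the same formats. No neighbour's annotated span overlaps its PIM gene in RefSeq.

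The pathway around the kinases was read from 137 listed genes, of which 133 were in the table and 110 passed the low-value filter in each line. They cover ligands, receptors, JAK and STAT proteins, STAT targets and feedback genes, NF-κB, AU-rich mRNA binding proteins, chaperones and phosphatases, substrates, and the parallel AKT, SGK and S6 kinases. Genes were tested with limma on log2(FPKM + 1), and called at a Benjamini-Hochberg adjusted p under 0.05 over all tested genes. Most tested genes were called in these libraries, so each count has to be read against its background.

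In PANC-1, 49 of the 110 rose and 36 fell in AggreWell against 2D, where 45.9% of all tested genes were called higher and 24.1% lower. At 1 rpm 64 rose and 35 fell, against 52.3% and 33.9% of all genes. At 30 rpm 63 rose and 31 fell, against 53.6% and 32.2%. For 30 rpm against 1 rpm 44 rose and 43 fell, against 36.2% and 31.9%. As a share of the 110, the rises from 2D were 44.5%, 58.2% and 57.3%, near the background. The falls were 32.7%, 31.8% and 28.2%, above the background in AggreWell and below it in DRCC. Between the speeds 40.0% rose and 39.1% fell, both above the background. These gaps were not tested. Under median-ratio scaling the split was 26 higher and 56 lower in AggreWell, 50 and 47 at 1 rpm, and 49 and 54 at 30 rpm. Over all genes, that scaling called 28.9% higher and 43.0% lower in AggreWell, 39.9% and 45.6% at 1 rpm, and 40.8% and 45.1% at 30 rpm.

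In HEK293T, 55 rose and 30 fell in AggreWell against 2D, where 48.6% of all tested genes were called higher and 26.8% lower. At 1 rpm 65 rose and 32 fell, against 53.1% and 31.7%, and at 30 rpm 57 rose and 35 fell, against 49.6% and 35.5%. For 30 rpm against 1 rpm 23 rose and 43 fell, against 19.6% and 32.9%. As a share of the 110, the rises at 1 rpm and 30 rpm were 59.1% and 51.8%, again near the background. The falls from 2D were 27.3%, 29.1% and 31.8% in AggreWell, at 1 rpm and at 30 rpm. Between the speeds 39.1% fell, above the 32.9% of all genes, a gap that was not tested. Under median-ratio scaling the split was 39 higher and 51 lower in AggreWell, 42 and 52 at 1 rpm, 45 and 50 at 30 rpm, and 34 and 28 between the speeds. Over all genes, that scaling called 32.2% higher and 44.6% lower in AggreWell, 38.4% and 46.3% at 1 rpm, 39.5% and 45.4% at 30 rpm, and 31.0% and 21.8% between the speeds.

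**Figure D4:**
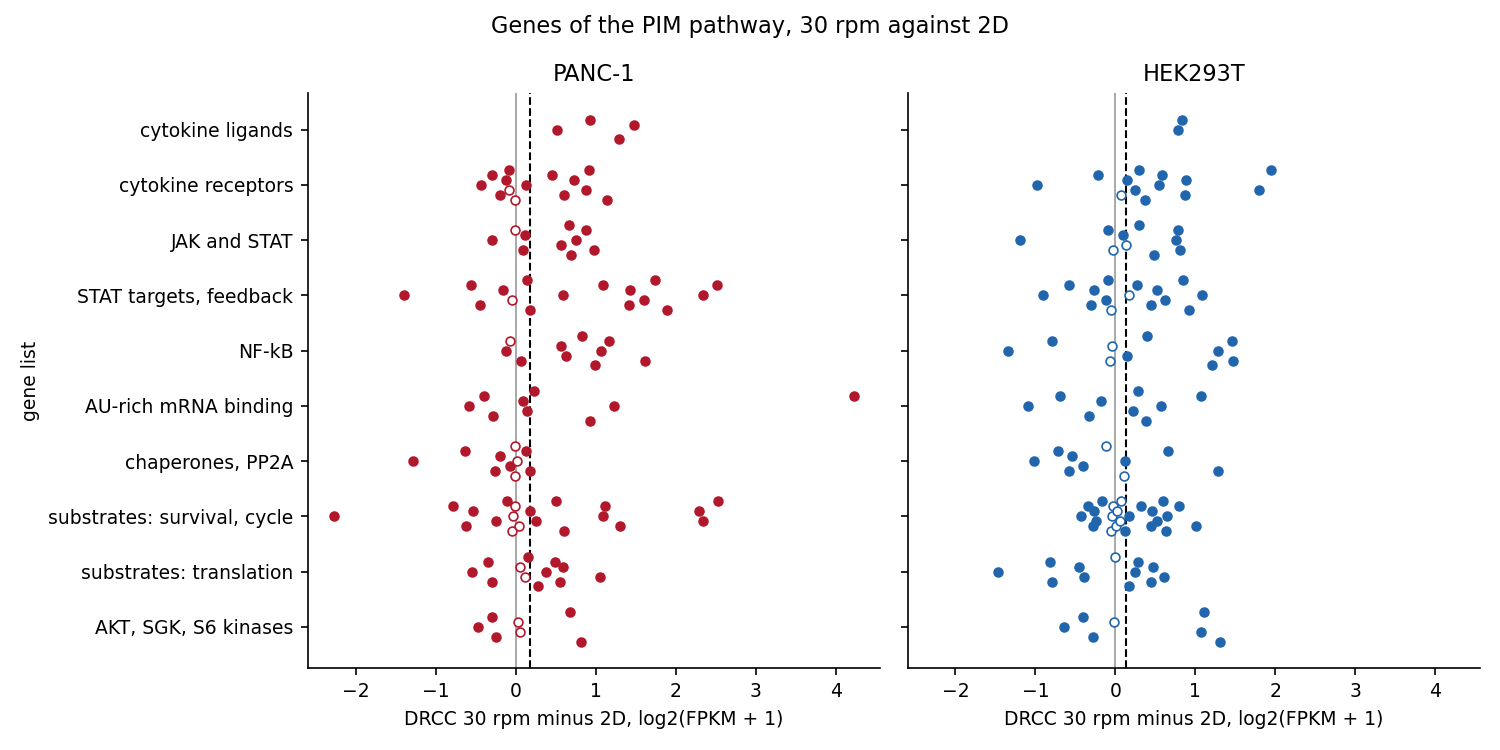
Difference of DRCC 30 rpm from 2D on the log2(FPKM + 1) scale (horizontal axis) for each tested gene of 10 lists around the PIM kinases (vertical axis, points spread for legibility), with PANC-1 in the left panel and HEK293T in the right one. Filled points have an adjusted p under 0.05, open points do not, and the dashed line is the median of all tested genes; most lists spread to both sides, and ZFP36 stands alone at 4.23 in PANC-1.

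The median log2 difference of a list places it beside that of all tested genes, which at 1 rpm was 0.15 in PANC-1 and 0.18 in HEK293T. In PANC-1 at 1 rpm it was 0.87 for ligands, 0.23 for receptors, 0.62 for JAK and STAT genes, 0.47 for STAT targets and 0.97 for NF-κB. It was -0.015 for AU-rich mRNA binding, -0.25 for chaperones and PP2A, 0.12 for survival and cycle substrates, 0.22 for translation and 0.044 for the parallel kinases. In HEK293T at 1 rpm the medians in that order were 1.04, 0.61, 0.34, 0.27, 0.064, 0.18, -0.31, 0.19, 0.036 and 0.002. Of the 17 listed ligands, the medians rest on 4 tested genes in PANC-1 and 2 in HEK293T. JAK and STAT, STAT target and NF-κB genes thus had a higher median in PANC-1, and receptors in HEK293T, a contrast that was not tested. The list counts below were not tested as sets either, and most genes of any kind were called. In PANC-1, 52.3% of all tested genes were called higher and 33.9% lower at 1 rpm, and 53.6% and 32.2% at 30 rpm. In HEK293T these shares were 53.1% and 31.7%, and 49.6% and 35.5%. Median-ratio scaling gave 39.9% and 45.6% in PANC-1 at 1 rpm, and 38.4% and 46.3% in HEK293T.

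Ligands of the gp130 family are known PIM inducers. In PANC-1 LIF, the leukaemia inhibitory factor, rose from 19.0 ± 0.5 FPKM (SD, n = 3) in 2D to 35.9 ± 0.9 at 1 rpm and 48.1 ± 1.5 at 30 rpm (log2 0.88 and 1.30, limma adjusted p = 9.1e-12 and 2.2e-13). IL11 rose from 0.546 ± 0.159 to 1.97 ± 0.08 and 3.28 ± 0.14 FPKM. Of 4 tested ligands, 3 rose and 1 fell at 1 rpm and 4 rose at 30 rpm. In HEK293T the 2 tested ligands, IL11 and CTF1, rose in all 3 formats against 2D, and both had 2D means under 1.2 FPKM. In both lines IL11 passed the low-value filter only through DRCC libraries, so the filter favoured its rise there. Its AggreWell means were 0.341 FPKM in PANC-1 and 0.791 in HEK293T.

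The shared receptor chain IL6ST, which encodes gp130, stood at 28.5 ± 0.7 FPKM in PANC-1 2D and at 2.02 ± 0.48 in HEK293T 2D. In HEK293T it rose to 7.35 ± 0.56 in AggreWell, 10.9 ± 0.9 at 1 rpm and 10.49 ± 0.26 at 30 rpm (log2 1.48, 1.99 and 1.94; limma adjusted p = 1.1e-08, 2.5e-10 and 2.9e-10). LIFR, the LIF receptor chain, rose there from 1.17 ± 0.30 to 6.30 ± 0.93 at 1 rpm and 6.52 ± 0.19 at 30 rpm. Of the 13 receptors tested in HEK293T, 12 rose and 1 fell at 1 rpm, or 8 and 2 under median-ratio scaling. In PANC-1 9 of 14 rose and 4 fell at 1 rpm, or 6 and 5 under that scaling. There EPOR, the erythropoietin receptor, rose from 3.71 ± 0.10 to 9.40 ± 0.28 FPKM at 30 rpm.

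Of the 10 JAK and STAT genes tested in PANC-1, all rose at 1 rpm, and 8 rose and 1 fell at 30 rpm. JAK2 and JAK3 passed the low-value filter only through DRCC libraries, so the filter favoured their rise from 2D. Their means were 0.63 and 0.078 FPKM in 2D, and 0.86 and 0.20 in AggreWell. Under median-ratio scaling 7 rose and 1 fell at 1 rpm, and 6 rose and 4 fell at 30 rpm. Over all tested genes of the line, 52.3% were called higher at 1 rpm and 53.6% at 30 rpm, or 39.9% and 40.8% under that scaling. STAT3, the main mediator of gp130 signalling, stood at 39.8 ± 0.3 FPKM in 2D and fell to 33.0 ± 0.6 in AggreWell (log2 -0.26). It rose to 72.4 ± 0.7 at 1 rpm and 65.1 ± 0.9 at 30 rpm (log2 0.85 and 0.70, limma adjusted p = 5e-13 and 3.6e-12). STAT5A rose from 1.65 ± 0.25 FPKM to 2.92 ± 0.17 and 3.88 ± 0.10. STAT5B rose from 16.8 ± 0.6 to 25.1 ± 0.4 at 1 rpm and stood at 18.3 ± 0.4 at 30 rpm, where its log2 difference of 0.12 passed the test but turned to -0.11 under median-ratio scaling. JAK3, a kinase of lymphoid cytokine receptors, rose from 0.0784 ± 0.0116 to 1.82 ± 0.04 FPKM at 1 rpm, and STAT2, which carries interferon signals, from 5.83 ± 0.36 to 16.6 ± 0.5.

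In HEK293T, 9 of 10 JAK and STAT genes rose and 1 fell at 1 rpm, and 6 rose and 2 fell at 30 rpm. Under median-ratio scaling these were 5 and 1, and 5 and 4. STAT4, at 0.32 FPKM in 2D and 0.87 in AggreWell, passed the low-value filter only through DRCC libraries, which favoured its rise. STAT3 stood at 13.4 ± 0.1 FPKM in 2D, 13.6 ± 0.1 in AggreWell, 15.8 ± 0.6 at 1 rpm and 13.0 ± 0.4 at 30 rpm. Its log2 difference from 2D was 0.028 in AggreWell, 0.22 at 1 rpm and -0.035 at 30 rpm, and only that at 1 rpm passed the test (limma adjusted p = 3e-05), though the first and second turned to -0.19 and -0.056 under median-ratio scaling. STAT5B stood at 9.28 ± 0.26 FPKM in 2D and 9.93 ± 0.28 in AggreWell, and rose to 12.2 ± 0.4 at 1 rpm. Its log2 difference at 30 rpm was 0.09 (limma adjusted p = 0.045), and -0.10 under median-ratio scaling. The group means of STAT5A were at most 0.0212 FPKM in this line. STAT6, which carries IL-4 signals, fell from 15.4 ± 0.7 to 7.61 ± 0.26 and 6.20 ± 0.42 FPKM in DRCC, and JAK2 rose from 0.371 ± 0.061 to 1.77 ± 0.09 and 1.41 ± 0.15.

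Of 16 STAT target and feedback genes tested in PANC-1, 11 rose and 3 fell at 1 rpm, and 11 rose and 4 fell at 30 rpm, or 10 and 5 and 9 and 5 under median-ratio scaling. JUNB, an AP-1 subunit, rose from 12.8 ± 0.8 FPKM to 61.0 ± 1.8 and 77.8 ± 1.1 (log2 2.17 and 2.51, limma adjusted p = 1.8e-14 and 3.9e-15). IRF1, an interferon-induced factor, rose from 2.04 ± 0.06 to 29.4 ± 0.7 at 1 rpm and stood at 10.2 ± 0.3 at 30 rpm, so its order of speeds was opposite to that of PIM1 and PIM3. SOCS3, a feedback inhibitor of JAK that is also a PIM substrate, stood at 33.8 ± 1.0 FPKM in 2D, fell to 16.5 ± 0.4 in AggreWell, and rose to 42.4 ± 1.2 and 72.8 ± 1.1 in DRCC. SOCS1, a related inhibitor, rose from 0.515 ± 0.184 to 6.67 ± 0.40 FPKM at 30 rpm. CISH, a STAT5 target, had group means of at most 0.231 FPKM in PANC-1 and was not tested.

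In HEK293T, 9 of 15 genes of that list rose and 5 fell at 1 rpm, and 7 rose and 6 fell at 30 rpm, or 7 and 6 and 7 and 7 under median-ratio scaling. SOCS3 stood at 0.696 ± 0.151 FPKM in 2D and rose to 1.25 ± 0.15, 1.46 ± 0.13 and 1.43 ± 0.14 in AggreWell and at the DRCC speeds. CISH stood at 0.771 ± 0.146 in 2D, 0.882 ± 0.088 in AggreWell, 1.11 ± 0.12 at 1 rpm and 1.14 ± 0.15 at 30 rpm, and the DRCC differences passed the test (log2 0.25 and 0.28, limma adjusted p = 0.0071 and 0.0043). That at 1 rpm was lost under median-ratio scaling (log2 0.11, adjusted p = 0.19). PIAS1, which encodes a SUMO ligase, rose from 1.78 ± 0.12 to 4.77 ± 0.23 and 4.91 ± 0.15 FPKM.

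Among 10 NF-κB genes, 7 rose and 1 fell in PANC-1 at 1 rpm and 8 rose and 1 fell at 30 rpm, or 7 and 3 at each speed under median-ratio scaling. In HEK293T 4 rose and 3 fell at 1 rpm and 6 rose and 2 fell at 30 rpm, or 4 and 6 and 5 and 4 under that scaling. NFKB2, the p100 subunit, rose in both lines, from 6.95 ± 0.54 to 23.7 ± 0.3 and 23.3 ± 0.9 FPKM in PANC-1 and from 8.69 ± 0.45 to 23.6 ± 1.1 and 25.5 ± 0.4 in HEK293T. NFKBIA, the inhibitor that NF-κB induces, rose in PANC-1 from 9.46 ± 0.56 to 57.6 ± 1.7 at 1 rpm and 20.9 ± 1.1 at 30 rpm (log2 2.49 and 1.07). In HEK293T it stood at 18.8 ± 0.6 FPKM in 2D and fell to 13.8 ± 0.8 and 10.4 ± 0.5.

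Genes of proteins that bind AU-rich elements, such as those printed above, included the largest difference among all tested list genes, that of ZFP36. ZFP36, which encodes tristetraprolin, a decay factor for ATTTA-bearing messages, rose in PANC-1 from 115 ± 12 FPKM to 1677 ± 49 at 1 rpm and 2160 ± 8 at 30 rpm (log2 3.86 and 4.23, limma adjusted p = 1.3e-15 and 5.5e-16). In HEK293T ZFP36 stood at 2.65 ± 0.31, 4.80 ± 0.38 and 3.75 ± 0.49 FPKM in the same formats. ZFP36L1, its paralogue, rose in both lines, from 5.03 ± 0.58 to 16.8 ± 0.4 and 13.1 ± 0.4 in PANC-1 and from 8.77 ± 0.05 to 14.9 ± 0.6 and 19.5 ± 0.9 in HEK293T. HNRNPD, the AUF1 binding protein, fell in HEK293T from 259 ± 5 to 116 ± 4 and 120 ± 3 FPKM. Of the 9 genes of the list, 4 rose and 4 fell in PANC-1 at 1 rpm and 6 rose and 3 fell in HEK293T, or 3 and 5 and 4 and 5 under median-ratio scaling.

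HSP90 and HSP70 chaperones are known to bind PIM1 protein and to bear on its stability. HSP90AA1, the inducible HSP90, rose in AggreWell from 201 ± 3 to 402 ± 2 FPKM in PANC-1, and stood at 204 ± 1 and 200 ± 4 in DRCC. In HEK293T it rose from 121 ± 0.3 FPKM to 630 ± 5 in AggreWell, 361 ± 4 at 1 rpm and 296 ± 5 at 30 rpm (log2 2.37, 1.56 and 1.28). HSPA8, the constitutive HSP70, fell in both lines, from 1685 ± 50 to 693 ± 7 FPKM in PANC-1 and from 850 ± 14 to 419 ± 3 in HEK293T at 30 rpm. Of 10 genes of chaperones and the phosphatase PP2A, 2 rose and 7 fell in PANC-1 at 1 rpm and 3 rose and 6 fell in HEK293T, or 0 and 8 and 2 and 8 under median-ratio scaling.

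Among 24 listed substrates in survival and the cell cycle, 10 of 20 tested rose and 7 fell in PANC-1 at 1 rpm, and 13 of 24 rose and 5 fell in HEK293T. Under median-ratio scaling these were 8 and 10, and 8 and 12. MYC, which PIM kinases phosphorylate and cooperate with in lymphoma, stood at 30.5 ± 3.7 FPKM in PANC-1 2D and rose to 180 ± 3 at 30 rpm (log2 2.53, limma adjusted p = 1.9e-13). In HEK293T it rose from 60.5 ± 1.4 to 105 ± 0.4 FPKM (log2 0.79, adjusted p = 9e-12). CDC25A, the phosphatase that starts S phase, fell in PANC-1 from 18.5 ± 0.5 to 2.40 ± 0.20 at 1 rpm and 3.05 ± 0.13 at 30 rpm (log2 -2.52 and -2.27). In HEK293T it stood at 53.0 ± 1.1, 45.2 ± 0.5 and 46.9 ± 0.8 FPKM. FOXO4, a forkhead factor, rose in PANC-1 from 0.540 ± 0.181 to 3.90 ± 0.03 at 1 rpm. CDKN1A, the inhibitor p21, rose in HEK293T from 9.27 ± 0.25 to 23.0 ± 0.5 at 1 rpm, and MYB from 1.46 ± 0.11 to 4.08 ± 0.26.

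Of 12 substrates and partners in translation, 7 rose and 5 fell in PANC-1 at 1 rpm and 6 rose and 5 fell in HEK293T, or 5 and 5 and 2 and 8 under median-ratio scaling. AKT1S1, which encodes PRAS40, an mTORC1 inhibitor that PIM kinases phosphorylate, fell in HEK293T from 44.2 ± 1.3 FPKM to 18.7 ± 0.2 and 15.4 ± 0.4 (log2 -1.20 and -1.46, limma adjusted p = 3.5e-12 and 4.9e-13). EIF4B, an initiation factor, rose in PANC-1 from 160 ± 3 to 313 ± 2 FPKM at 1 rpm. EIF4EBP1, the cap-binding repressor 4E-BP1, fell in PANC-1 AggreWell from 58.8 ± 5.7 to 40.4 ± 0.4 and rose to 89.1 ± 1.8 at 30 rpm.

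Of the kinases that act in parallel, 3 of 7 rose and 3 fell at 1 rpm in each line, or 3 and 4 in PANC-1 and 2 and 4 in HEK293T under median-ratio scaling. SGK1, a serum- and stress-induced kinase, rose in PANC-1 from 39.5 ± 0.8 to 63.0 ± 0.6 and 70.1 ± 1.1 FPKM. RPS6KB1, the S6 kinase, rose in HEK293T from 6.92 ± 0.51 to 14.3 ± 1.0 and 16.1 ± 0.3 FPKM in DRCC.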

How the data were processed

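RNA from 24 libraries of PANC-1 and HEK293T cells was measured, in 8 groups of 3, as labelled. Extraction of total RNA used TRIzol and library construction a VAHTS kit, per the labels' protocols. Values in the authors' table are FPKM, for 26450 genes. Tools named without a role are HISAT2, fastp, HTSeq and R 3.2.0, per the submitters' processing notes, which also name the mouse build mm10 although the symbols are human. The FPKM values of all 26450 genes were whole fragments to within 0.01 fragments, which gave the depth. Counting error of a PIM level is at most 3.98% per library.

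Per line, genes reaching an FPKM of 1 in 3 or more of 12 libraries were kept (11585 in PANC-1 and 12548 in HEK293T) and log2(FPKM + 1) was fitted with limma 3.58.1 in R 4.3.3, with a variance trend and Benjamini-Hochberg adjustment. Tables and figures were made in Python 3.11.15 with pandas 2.3.3. The script was tested on simulated data. The SE of a PIM difference comes from its 3 and 3 libraries.

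The members and lists were chosen with earlier results of these data known. From each list and line, the text took called genes with the largest changes, 2 at each DRCC speed and 1 in AggreWell, and always STAT3, STAT5A, STAT5B, SOCS3 and CISH. SOCS1 and SOCS3 stand in 2 lists. For each PIM gene the 5 genes of most similar pattern and the nearest measured neighbours were named. The SE and p of the pathway genes come from the fit, the SD from the 3 libraries.

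Alternatives were a pseudocount of 0.1, no filter, median-ratio scaling, voom on the recovered fragments, each comparison fitted on its own 2 formats, a replicate block, and the omission of single libraries. Same-numbered libraries deviated together, with every r above 0.1, only for HEK293T at 1 rpm and 2D (r = 0.158, 0.43 and 0.145). Strand, not given in the sources used here, was taken as unknown, so antisense reads could not be separated. The PIM proteins were not analysed here, and not every gene this rule gives is reported here.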

Additional observations from a re-analysis of the deposited data

Results flagged for a closer look

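PIM2 differed from 2D in opposite directions in the lines, with every library of the format on 1 side of every 2D library. On the log2(FPKM + 1) scale the difference was 0.13 in PANC-1 and -0.16 in HEK293T for AggreWell, 0.55 and -0.70 for DRCC at 1 rpm, and 0.70 and -0.73 at 30 rpm. PIM3 did the same in the DRCC formats, at 2.33 in PANC-1 and -0.28 in HEK293T for 1 rpm, and at 2.67 and -0.10 for 30 rpm. STAT3 in AggreWell stood at -0.26 in PANC-1 and 0.028 in HEK293T, and SOCS3 at -0.99 and 0.41. The HEK293T value of STAT3 was within its SE of 0.033 and did not pass the test (limma adjusted p = 0.46). The difference between the lines was not tested. Under median-ratio scaling the PANC-1 AggreWell value of PIM2 was -0.056 and the HEK293T AggreWell value of STAT3 was -0.19, so these no longer stood opposite.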

How the results depend on the processing

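The counts of called pathway genes stayed within 1.5 times their value without a filter, with a pseudocount of 0.1, with voom, with each comparison fitted on its own formats and without any 1 library. With the replicate block they were 49 higher and 36 lower in PANC-1 AggreWell, 64 and 35 at 1 rpm and 63 and 31 at 30 rpm, and the block moved no other count by more than 1. Median-ratio scaling moved 7 of the 16 counts past that: PANC-1 AggreWell to 26 higher and 56 lower, PANC-1 30 rpm to 54 lower, HEK293T AggreWell to 51 lower, HEK293T 1 rpm to 42 higher and 52 lower, and HEK293T 30 rpm against 1 rpm to 28 lower.

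Under the same scaling the PANC-1 differences from 2D, for AggreWell, 1 rpm and 30 rpm, were -0.50, 1.67 and 2.08 for PIM1, -0.056, 0.32 and 0.47 for PIM2, and -0.22, 2.10 and 2.43 for PIM3. In HEK293T they were -0.13, 1.12 and 1.21 for PIM1, -0.38, -0.99 and -0.93 for PIM2, and -0.20, -0.57 and -0.31 for PIM3. With a pseudocount of 0.1, PIM1 moved to -0.37, 2.00 and 2.43 in PANC-1 and to 1.49 and 1.51 at the DRCC speeds in HEK293T, and PIM3 to 2.37 and 2.71 at the DRCC speeds in PANC-1. Leaving out any 1 library moved no PIM difference by more than the spread between libraries. Median-ratio scaling reversed STAT5B in PANC-1 at 30 rpm (-0.11) and in HEK293T AggreWell (-0.12) and 30 rpm (-0.10), and STAT3 in HEK293T AggreWell (-0.19) and 1 rpm (-0.056). The call of STAT5B in HEK293T at 30 rpm was lost with the replicate block (adjusted p = 0.057), without a filter (0.055), on its own formats (0.074) and without any of 4 libraries (0.064 to 0.18). The cause of these moves was not tested. Depth limits the low genes, such as STAT5A in HEK293T.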
